A study of Solanum tuberosum with 100 samples.

Results

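The genes described here are the 100 genes that took the largest mean share of the reads in bruised potato tubers, out of 25163 genes in the count table. They were chosen by their mean CPM (the reads of a gene in each 1000000 reads counted in the library) over all 100 libraries, so their levels and ranks are a description and were not tested. Each library held tissue from the impact site of 3 tubers of 1 tetraploid genotype, pooled 2 h after a falling lead weight struck the cold-stored tubers. The genotypes were the progeny of 11 crosses that all had the breeding line Crop52 as a parent, and each was sequenced once. By their labels, 33 libraries came from tubers with high bruising, 41 from tubers with low bruising and 26 from tubers that were left out of the group comparison. No tuber without an impact was sequenced, so a response to the impact cannot be told apart from a level that was there before it. The total counts ranged from 6832655 to 41650152 per library with a median of 19394566, and 12 libraries held fewer than 10000000 counts (4 with high bruising, 7 with low bruising and 1 outside the comparison). The lowest count of any of the 100 genes in any library was 1988, for which the counting error alone is 2.24% of the value.

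A potato tuber is a storage organ, and a few protein families make up much of its soluble protein. Patatins are the vacuolar storage glycoproteins of the tuber and also have lipid acyl hydrolase activity. Kunitz-type inhibitors are small storage proteins that block proteases and are also known from wounded tissue. Blackspot bruising follows when an impact breaks cell compartments and polyphenol oxidases reach their phenolic substrates, which leads to dark pigment.

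Names were taken from the candidate genes for bruising that the study lists, because none of the 25163 identifiers matched the available RefSeq gene table. Of the 40 listed candidates 35 were in the count table and 5 were among the 100 genes, which leaves 95 of the 100 genes without a name here. The named genes were the Kunitz-type proteinase inhibitor KTPI (rank 6), the Ci21A protein CI21A (rank 27), annexin p34 AN34 (rank 35), Patatin-2-Kuras 4 PAT2-K4 (rank 53) and Patatin 05 PAT1-K1 (rank 63). By list, 2 of 5 patatins, 1 of 8 protease inhibitors, and CI21A and AN34 among 4 other candidates belonged to the set. None of the 3 starch genes, 4 lipid genes, 5 phenylpropanoid genes or 6 polyphenol oxidase genes did. The polyphenol oxidases were far down the table, with the best of them, catechol oxidase B (COB), at rank 6726. The study lists 9 such genes, close together on the same chromosome, of which 6 were in the counts. Reads that fit more than 1 gene were not counted, which can lower the ranks of close copies. The study called 57 of the 25163 genes differential in these same libraries. None of them was in the set, and the highest of them stood at rank 1336. With so few called over the whole table, their absence from 100 genes is no result about the set. Ranks compare shares of reads only, as no gene length was available to put levels on a per-length scale.

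Some tuber storage and starch genes of the candidate list also stood near the set, while others stood far below it. The genes inside the set were chosen for their level, so that their presence is no check of the tissue label. KTPI, PAT1-K1 and PAT2-K4 had at least 116 CPM in every library. Just outside the set stood the L-type alpha-glucan phosphorylase PHO1A, an enzyme of starch metabolism in plastids, at rank 104 with 909 CPM. Patatin-04/09 (PAT0409) followed at rank 108, the inhibitor STKTI at rank 124, the lipoxygenase LOX1-ST-2 at rank 130 and the small subunit of ADP-glucose pyrophosphorylase AGPB1, which supplies starch synthesis, at rank 171. Other genes of the same lists stood lower. The starch gene AGPB was at rank 22236 with a median of 0 CPM. The inhibitors not named above lay between rank 270 (PKPI-A5) and rank 2958 (KTI-D). The other lipid genes in the counts lay between ranks 6101 and 23045. Not all listed patatins were high either. Patatin group O (PATO) stood at rank 729, and Patatin 3 (PAT3) at rank 12760 with a median of 3.25 CPM and no read in at least 1 library.

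The mean CPM declined steadily along the ranks, with no gap at the edge of the set. The first gene, PGSC0003DMG400008917, had a mean of 8088 CPM and ranged from 4586 to 15437 CPM. The genes PGSC0003DMG400023400, PGSC0003DMG400022159, PGSC0003DMG400010128 and PGSC0003DMG400029408 followed with 5221, 5036, 4278 and 3868 CPM. After KTPI with 3577 CPM, the ranks down to the tenth were taken by PGSC0003DMG400031877, PGSC0003DMG400000708, PGSC0003DMG400010146 and PGSC0003DMG400024891 with 3543, 3248, 3157 and 3062 CPM. At the edge, the gene at rank 96 (PGSC0003DMG400022894) had 938.6 CPM and the gene at rank 100 (PGSC0003DMG400030462) had 916 CPM. The first gene outside (PGSC0003DMG400026911) had 912 CPM and PGSC0003DMG400018122, at 4 ranks below it, had 906 CPM. The order at the edge thus depended on differences of a few CPM, and by median CPM the first gene outside moved to rank 100.

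**Figure D1:**
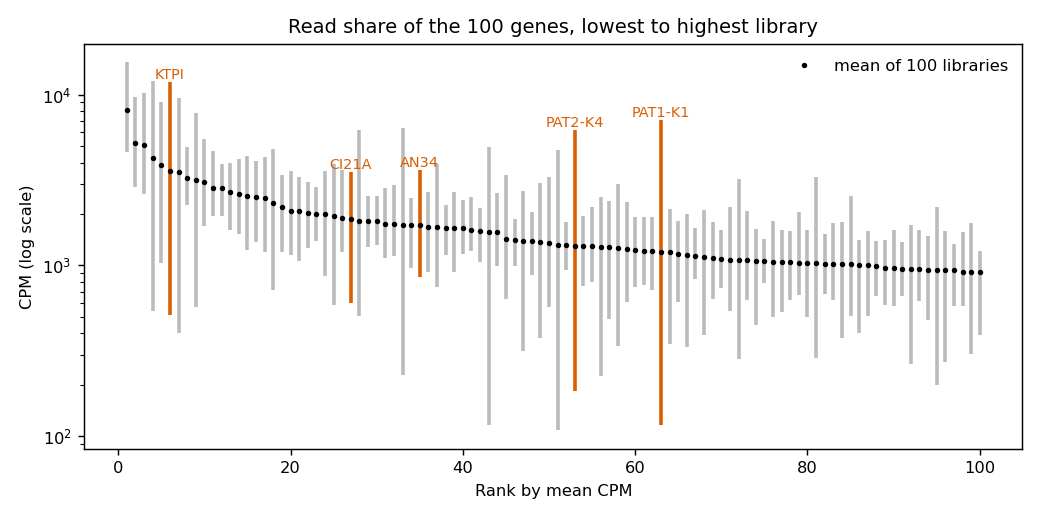
Mean CPM (points, log scale) of the 100 genes by rank, with a bar from the lowest to the highest of 100 libraries and the 5 named genes in orange. The mean goes from 8088 to 916 CPM, while the bars differ widely in length, from 1.82-fold to 61.1-fold.

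Together the 100 genes held 17.4% ± 1.13 (SD, n = 100) of the counts of a library. The lowest share was 14.5% in the progeny 2158_4 and the highest was 21.2% in the progeny 2175_4. The first 10 genes held between 2.59% and 6.63%, and the first 1000 genes held 51.7% ± 1.39 (SD, n = 100). Between 712 and 1037 genes, with a median of 883.5, were needed to cover 50% of the counts of a library. A library's own leading genes overlapped with the set only in part. Between 72 and 90 of the 100 genes, with a median of 82, were among the 100 highest of a given library, and 31 genes were so in every library. In all, 253 genes reached the first 100 of at least 1 library. PAT1-K1 and PGSC0003DMG400018744 each did so in only 46 libraries, the fewest of the set.

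The share was described by cross and by bruising group. The median share was lowest in cross 2158 with 16.1% (n = 13) and highest in cross 2177 with 18.3% (n = 6), and differences between crosses made up 30.9% of the variance of the share. Within crosses the SD was 0.994 percentage points. The high-bruising libraries lay between 15.5% and 19.1% with a median of 17.3%, and the low-bruising libraries lay between 15.7% and 21.2% with a median of 17.7%. The 2 ranges overlapped, and the low-bruising range reached higher through the progeny 2175_4 and 2170_7 (19.5%). When the genes were chosen without the cross in which the share was then measured, the median share over 100 libraries was 17.3%, as it was with the full choice.

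**Figure D2:**
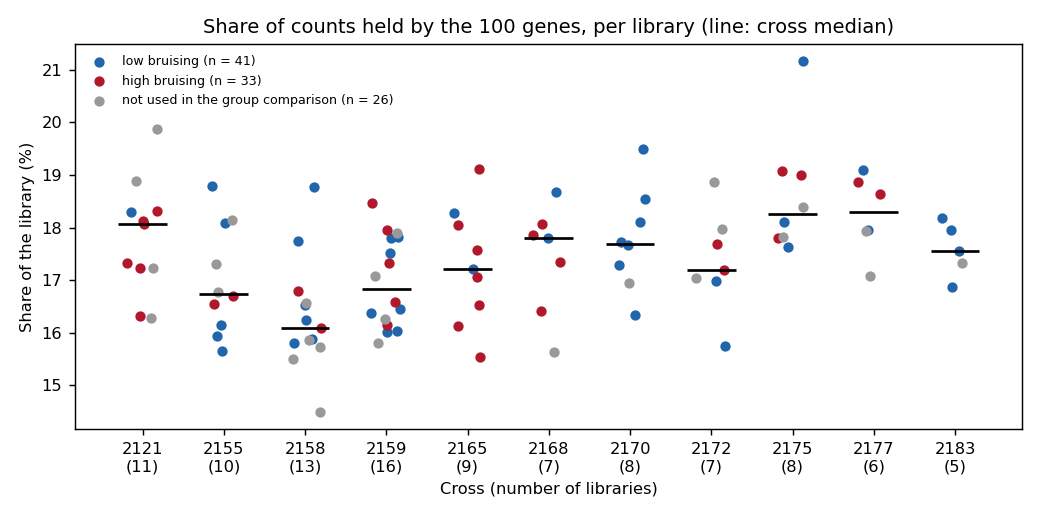
Share of each library's counts (%) held by the 100 genes, by cross, with points coloured by bruising group and a line at the cross median. Cross medians lie between 16.1% and 18.3%, and the highest single value, 21.2%, is in cross 2175.

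KTPI, the inhibitor with the highest rank, varied by a factor of 22.9 between libraries. In the high-bruising libraries it ranged from 1153 to 10312 CPM with a median of 3838 CPM. In the low-bruising libraries it ranged from 724 to 11822 CPM with a median of 2648 CPM, and in the libraries outside the comparison from 516 to 7848 CPM with a median of 3116 CPM. The 3 ranges overlapped. By cross, the mean was lowest in 2158 with 1687 ± 834 CPM (SD, n = 13) and highest in 2177 with 5817 ± 2378 CPM (SD, n = 6).

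The patatins had the widest ranges of the named genes. PAT1-K1 went from 116 CPM in the progeny 2121_11 to 7090 CPM in the progeny 2170_7, a 61.1-fold range and the largest of all 100 genes. Without the progeny 2170_7 its range was 36.9-fold, below the 44.1-fold of PGSC0003DMG400030255 and the 42.2-fold of PGSC0003DMG400000678. Its 10 highest libraries held 28.6% of its summed CPM, against a median of 14.1% over the 100 genes, which made it the most uneven of them. It ranged from 290 to 4279 CPM in the high-bruising libraries (median 893 CPM), from 243 to 7090 CPM in the low-bruising libraries (median 873 CPM) and from 116 to 3280 CPM in the others (median 798 CPM). These medians were close together, the ranges overlapped, and only low-bruising tubers reached above 4279 CPM, with a single library. The highest cross mean, 2866 ± 1901 CPM (SD, n = 8), was in cross 2170, and the lowest, 795 ± 553 CPM (SD, n = 8), was in cross 2175.

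PAT2-K4 ranged from 350 to 2725 CPM in the high-bruising libraries (median 1438 CPM), from 380 to 3223 CPM in the low-bruising libraries (median 1136 CPM) and from 184 to 6182 CPM in the others (median 976 CPM). The lowest and the highest value of all both lay outside the group comparison. Its highest cross mean was 1999 ± 1563 CPM (SD, n = 11) in cross 2121 and its lowest was 772 ± 385 CPM (SD, n = 13) in cross 2158. Patatin genes and Kunitz inhibitor genes form families of close copies, and reads that fit several copies were not counted, so the split of reads between copies is uncertain for these 3 genes.

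CI21A and AN34 were steadier. Ci21A belongs to the ASR-type proteins, which are known to be induced by cold storage in tubers, and annexins are calcium-dependent membrane-binding proteins. CI21A ranged from 936 to 3251 CPM with high bruising (median 1912 CPM), from 605 to 3532 CPM with low bruising (median 1720 CPM) and from 1123 to 3472 CPM in the others (median 1791 CPM). AN34 ranged from 860 to 2745 CPM with high bruising (median 1739 CPM), from 985 to 2547 CPM with low bruising (median 1640 CPM) and from 955 to 3605 CPM in the others (median 1710 CPM). Both genes overlapped across all 3 groups, with a 5.83-fold range of libraries for CI21A and a 4.19-fold range for AN34. The cross means of CI21A lay between 1327 CPM in 2158 and 2355 CPM in 2155, and those of AN34 between 1373 CPM in 2172 and 2037 CPM in 2155.

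**Figure D3:**
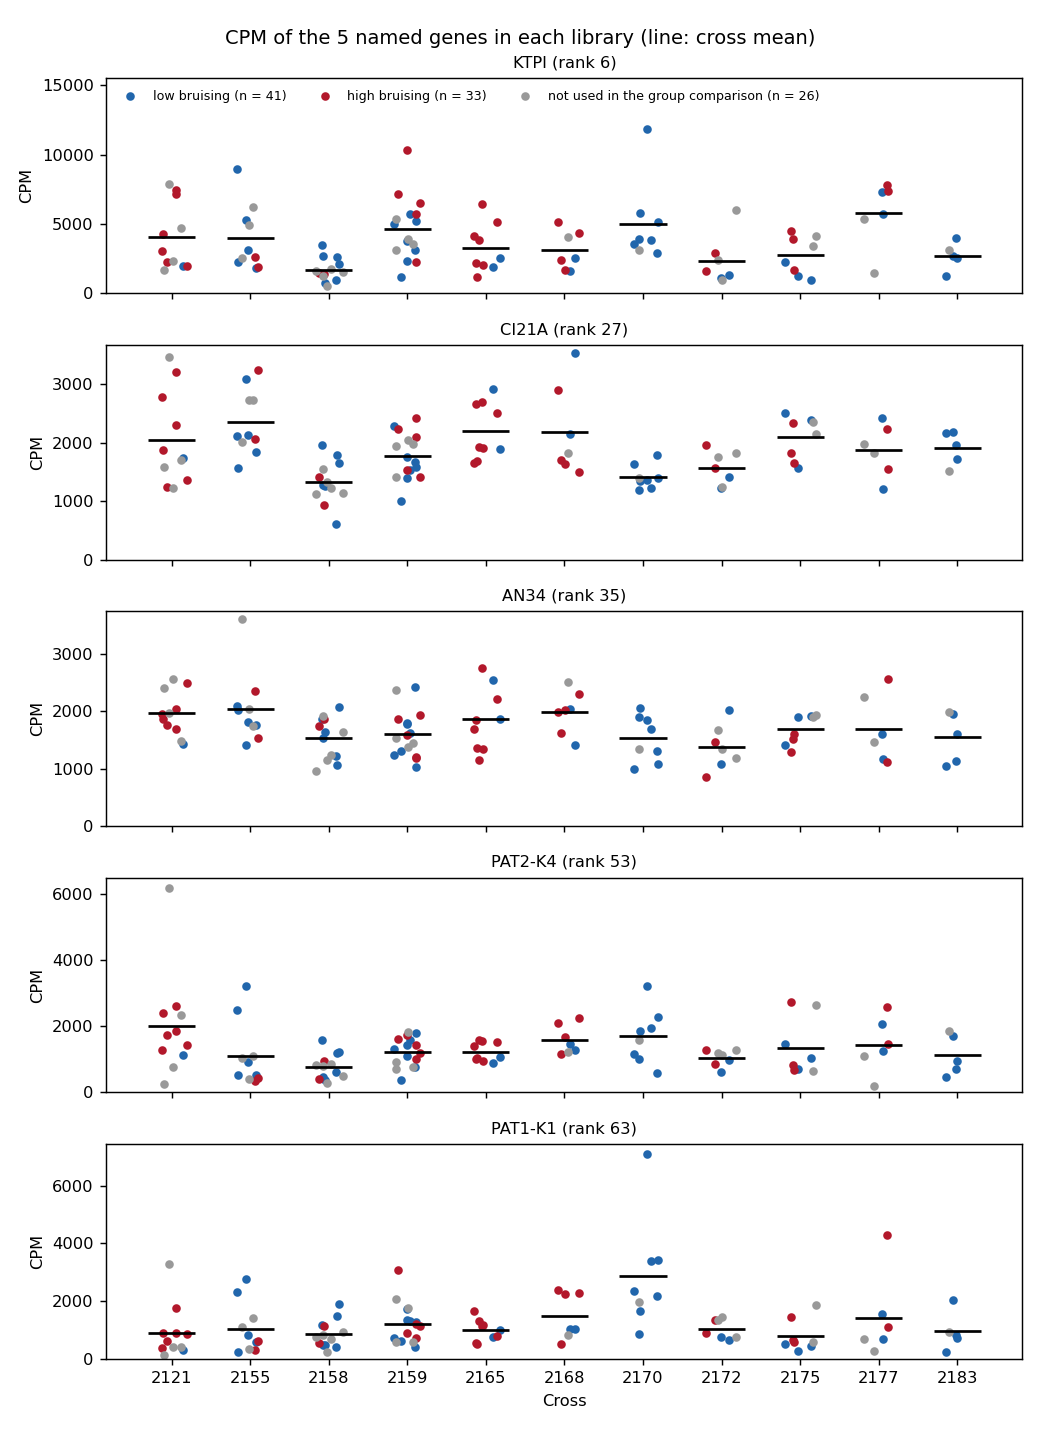
CPM of the 5 named genes in each of 100 libraries by cross, on axes that start at 0, with points coloured by bruising group and a line at the cross mean. High- and low-bruising libraries are mixed within each panel, and single libraries stand far above their cross for KTPI (11822 CPM) and PAT1-K1 (7090 CPM) in cross 2170.

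The spread of the 100 genes was described on the scale of log2(CPM + 0.5). It was given as the part of the variance that lay between the 11 crosses and the SD within crosses. The part between crosses is a raw ratio, which lies above 0 even where crosses do not differ. The median part between crosses was 33.9% for the 100 genes, 32.7% for the next 900 genes in mean CPM and 26.0% for all genes. The median SD within crosses was 0.26 for the 100 genes, 0.26 for the next 900 genes and 0.37 for all genes. By these medians the 100 genes were close to the genes that followed them in abundance. Their upper tail was wider. The SD within crosses that 10% of the genes exceeded was 0.59 for the 100 genes, 0.43 for the next 900 genes and 0.72 for all genes. Between the lowest and the highest library, 44 of the 100 genes varied by less than 3-fold and 14 by more than 10-fold, with a median of 3.12-fold.

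The genes most set by cross were PGSC0003DMG400000398 with 75.2%, PGSC0003DMG400033874 with 74.7% and PGSC0003DMG401003156 with 71.4% of the variance between crosses. PGSC0003DMG400000398 had its lowest cross mean, 783 CPM, in 2165 and its highest, 2105 CPM, in 2183. PGSC0003DMG401003156 had the same crosses at its ends, with 386 and 2070 CPM, a 5.37-fold difference of cross means. PGSC0003DMG400033874 had the opposite end in cross 2183, where its mean was 559.6 CPM, and its highest mean was 1724 CPM in 2168. At the other end, crosses held 10.7% of the variance for PGSC0003DMG400008117, 11.9% for PGSC0003DMG400010128 and 13.5% for PGSC0003DMG400031877. These raw parts are small. The SD between crosses, corrected for the spread within them, was 0.02, 0.13 and 0.16 for these genes. These 3 genes differed in how steady they were. PGSC0003DMG400008117 had a SD within crosses of 0.19, whereas PGSC0003DMG400010128 and PGSC0003DMG400031877 had 0.84 and 0.78.

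Within crosses, the most variable genes were PGSC0003DMG400030255 with a SD of 1.12, PGSC0003DMG400000678 with 1.01 and PAT1-K1 with 0.95. PGSC0003DMG400030255 ranged from 108 to 4767 CPM, and PGSC0003DMG400000678 from 117 to 4929 CPM. Both were lowest in the progeny 2177_5, the library in which PAT2-K4 was also lowest. The steadiest genes were PGSC0003DMG400007195 with a SD of 0.16, PGSC0003DMG400015731 with 0.16 and PGSC0003DMG400038720 with 0.17, whose libraries stayed within 1.92-fold, 2.18-fold and 1.94-fold.

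**Figure D4:**
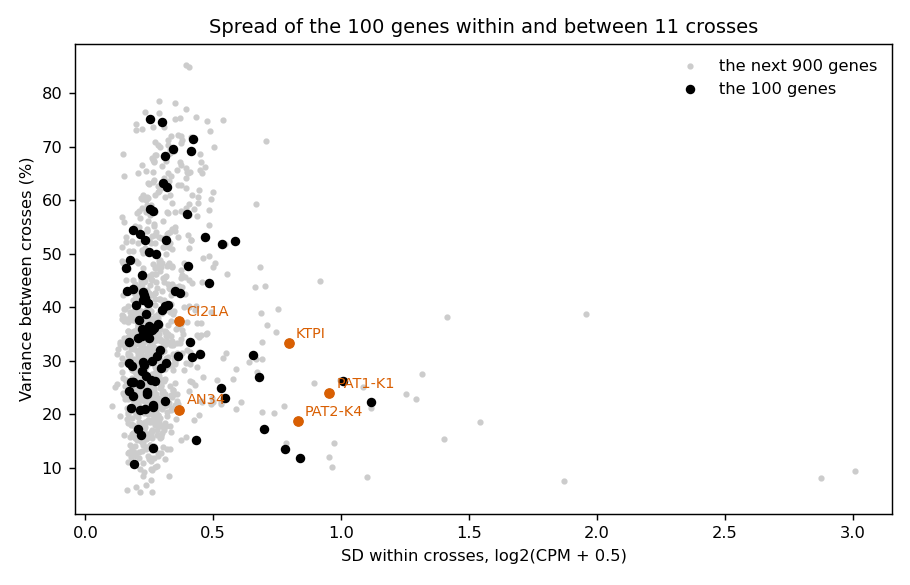
Part of the variance between 11 crosses (%) against the SD within crosses on the log2 scale, for the 100 genes (black, the 5 named genes orange) and the next 900 genes (grey). KTPI and both patatins lie at a SD of 0.79 to 0.95, to the right of most points, while CI21A and AN34 lie at 0.37.

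The crosses were then compared by edgeR's quasi-likelihood test over all 25163 genes, which asks whether the progeny of different crosses differ by more than the progeny within a cross. Of the 100 genes 93 differed between crosses at an adjusted p under 0.05, against 67.1% of all genes tested and 88.9% of the 900 genes next in mean CPM. The share among the 100 genes was thus near that of other abundant genes. KTPI (adjusted p = 9.56e-05), CI21A (adjusted p = 2.86e-05), PAT1-K1 (adjusted p = 0.00311) and PAT2-K4 (adjusted p = 0.0150) passed. The call of PAT1-K1 was lost without cross 2170 (adjusted p = 0.552), and that of PAT2-K4 was lost without cross 2158 (adjusted p = 0.231) and without cross 2121 (adjusted p = 0.0577). PGSC0003DMG400030255 passed (adjusted p = 0.0139) but did not without cross 2158 (adjusted p = 0.710), and PGSC0003DMG400029408 passed (adjusted p = 0.0134) but did not without cross 2177 (adjusted p = 0.0838). AN34 missed the threshold (adjusted p = 0.0523), as did PGSC0003DMG400000708 (adjusted p = 0.0513), PGSC0003DMG400010128 (adjusted p = 0.137), PGSC0003DMG400031877 (adjusted p = 0.202) and PGSC0003DMG400008117 (adjusted p = 0.109). AN34 passed with plain library totals (adjusted p = 0.0284), as did PGSC0003DMG400000708 (adjusted p = 0.00683).

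The comparison of high with low bruising asks whether tubers that bruise more differ in these transcripts shortly after the impact. None of the 100 genes passed at an adjusted p under 0.05 in edgeR's quasi-likelihood test. The share was 0.183% of all genes tested (0.111% higher and 0.0715% lower). It was 0% of the 900 genes next in mean CPM. With so few called over the whole table, the absence of calls among the 100 genes is no result about the set. At an unadjusted p under 0.05 there were 20 of the 100 genes, 15 lower and 5 higher with high bruising, against 12.4% of all genes, 6.42% lower and 5.94% higher. DESeq2 and limma-voom also called none of them. The estimates ran from -0.45 to 0.51 on the log2 scale with a median of -0.06, where the median of all genes was 0.00. In these pooled tissue samples, a change in the share of a cell type and a change in its RNA per cell cannot be told apart.

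The named genes showed small estimates beside their errors. The log2 fold change of high over low bruising was 0.25 ± 0.21 (SE) for KTPI, 0.12 ± 0.10 (SE) for CI21A, 0.08 ± 0.09 (SE) for AN34, 0.16 ± 0.17 (SE) for PAT2-K4 and -0.14 ± 0.24 (SE) for PAT1-K1. In edgeR's test these had adjusted p values of 0.670, 0.684, 0.766, 0.754 and 0.869. With cross as a term, the estimate was 0.50 for KTPI (unadjusted p = 0.0228, adjusted p = 0.876) and 0.42 for PAT1-K1 (adjusted p = 0.959), which turned the sign of the latter. It also turned positive without cross 2170 (0.30), which holds 7 low-bruising libraries and none with high bruising. Of the 9 crosses that held both groups, KTPI, PAT2-K4 and PAT1-K1 each had the higher mean with high bruising in 7, and CI21A and AN34 in 5.

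The smallest p values among the 100 genes belonged to 2 genes that were higher and 2 that were lower with high bruising. PGSC0003DMG400028641 ranged from 570 to 3288 CPM with high bruising (median 1480 CPM) and from 577 to 1958 CPM with low bruising (median 1114 CPM). The groups overlapped over the whole low-bruising range, and the upper tail was longer with high bruising. Its log2 fold change was 0.41 ± 0.11 (SE), for which edgeR gave an adjusted p of 0.0995, and 0.0321 without cross 2170. PGSC0003DMG400029732 had 0.51 ± 0.17 (SE) with an adjusted p of 0.169. On the lower side, PGSC0003DMG400010049 had -0.33 ± 0.12 (SE) with an adjusted p of 0.201, and PGSC0003DMG400009968 had -0.28 ± 0.10 (SE) with an adjusted p of 0.222. Of the 100 genes 2 were higher and 2 lower with high bruising in each of the 9 crosses that held both groups, against 0.227% and 0.310% of all genes. PGSC0003DMG400008117, the gene with the smallest part of variance between crosses, was 1 of those higher in each, with an estimate of 0.09 ± 0.05 (SE) and an adjusted p of 0.452.

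The relation to the bruising score used all 100 libraries and the mean score of the pooled tubers as a slope, in log2 units per point of a visual scale. Of the 100 genes 7 passed at an adjusted p under 0.05 in edgeR's quasi-likelihood test, 2 rising and 5 falling with the score, against 3.11% of all genes, 1.47% rising and 1.64% falling, and against 5.56% of the 900 genes next in mean CPM. The share of the 100 genes was close to that of the next 900. At an unadjusted p under 0.05 there were 36 of the 100 genes, 8 rising and 28 falling, against 18.5% of all genes, 8.73% rising and 9.78% falling. The next 900 genes were not counted at this threshold. Many of the 100 genes moved together, and groups of 16 and 12 of them had only negative slopes. The unadjusted counts given for the set in each bruising test are therefore not counts of independent genes. None of the 5 named genes passed. Their slopes per point were 0.12 ± 0.10 (SE) for KTPI, 0.10 ± 0.09 (SE) for PAT2-K4, 0.04 ± 0.05 (SE) for CI21A, 0.04 ± 0.04 (SE) for AN34 and -0.04 ± 0.11 (SE) for PAT1-K1. Over the whole list of candidate genes, 0 of 35 passed in either bruising test, with the smallest adjusted p at 0.0724 for the score and 0.134 for the groups.

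The 2 genes that rose with the score were PGSC0003DMG400029732 by 0.30 ± 0.08 (SE) per point (adjusted p = 0.0252 in edgeR's test) and PGSC0003DMG400028641 by 0.19 ± 0.05 (SE) per point (adjusted p = 0.0288). PGSC0003DMG400029732 ranged from 582 to 6383 CPM with high bruising (median 1909 CPM) and from 229 to 3178 CPM with low bruising (median 1185 CPM). Its cross mean was highest in 2121 with 2982 CPM and lowest in 2183 with 798 CPM. Cross 2121 held 6 high-bruising and 1 low-bruising libraries, and cross 2183 held 4 low-bruising libraries and none with high bruising.

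The 5 genes that fell had slopes from -0.26 to -0.14 per point. The steepest was PGSC0003DMG401003156 with -0.26 ± 0.08 (SE) per point (adjusted p = 0.0367 in edgeR's test). PGSC0003DMG400030405 had -0.20 ± 0.06 (SE) per point (adjusted p = 0.0412), and PGSC0003DMG400014345 had -0.15 ± 0.04 (SE) per point (adjusted p = 0.0417). PGSC0003DMG400010049 had the smallest p, with -0.20 ± 0.05 (SE) per point (adjusted p = 0.0181 in edgeR's test). It ranged from 334 to 1674 CPM with high bruising (median 1057 CPM) and from 496 to 2005 CPM with low bruising (median 1266 CPM). PGSC0003DMG400029921 had -0.14 ± 0.04 (SE) per point (adjusted p = 0.0269), and ranged from 400.4 to 1281 CPM with high bruising (median 968 CPM) and from 592 to 1339 CPM with low bruising (median 1076 CPM). PGSC0003DMG400010049 and PGSC0003DMG400029921 had their lowest cross mean in 2165, at 559 and 673 CPM. That cross held 7 high-bruising and 2 low-bruising libraries. For these 5 genes, between 50.4% and 71.4% of the variance lay between crosses.

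High- and low-bruising libraries were spread unevenly over the crosses, and no call for the score remained with cross as a term. With cross as a term, which compares progeny within their cross, 0 of the 100 genes and 0 of all genes passed for the score, although 26 of the 100 genes (6 higher, 20 lower) had an unadjusted p under 0.05 against 6.66% of all genes (2.94% higher, 3.72% lower). For the groups the same fit also called 0 of the 100 genes and 0 of all genes, and 18 of the 100 genes (7 higher, 11 lower) had an unadjusted p under 0.05 against 5.34% of all genes (2.65% higher, 2.68% lower). The slopes of the 5 falling genes shrank to between -0.13 and -0.07 and that of PGSC0003DMG400029732 to 0.10. PGSC0003DMG400028641 kept 0.18 per point (unadjusted p = 0.00156, adjusted p = 0.412), and was higher with high bruising in 7 of 9 crosses. The count of 7 also fell to 0 without cross 2121, without cross 2165, without cross 2183, or without the 12 libraries under 10000000 counts. Why the calls were lost was not tested.

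**Figure D5:**
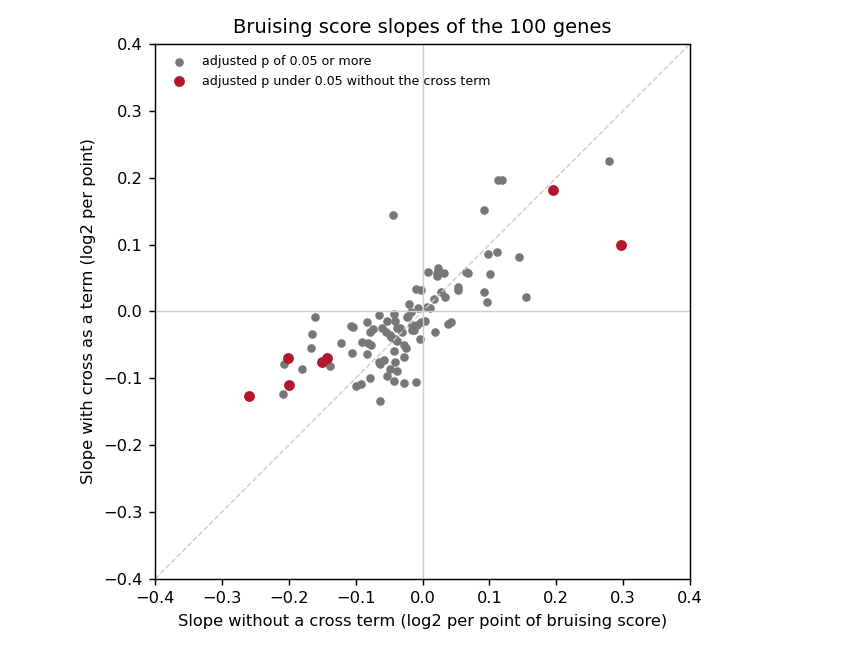
Slopes of the 100 genes on the bruising score without (x) and with (y) cross as a term, both in log2 units per point, with the 7 genes past the threshold in red and a dashed line of equality. The 5 falling genes lie above the line at about -0.13 to -0.07 with the cross term, and 1 of the 2 rising genes stays near the line at 0.18.

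Some of the 100 genes moved together over the libraries, which is given as a description over 100 libraries that share depth and composition. Among the 4950 pairs the median Spearman rho was -0.01, and 20 pairs were above 0.8, against 9 pairs after the cross means were removed. KTPI was most like PGSC0003DMG400010128 (rho = 0.65, and 0.75 after the cross means were removed), followed by PAT2-K4 (rho = 0.65), PGSC0003DMG400002895 (rho = 0.62) and PGSC0003DMG400010146 (rho = 0.62). PAT2-K4 was most like PAT1-K1 (rho = 0.69, and 0.77 after the cross means were removed). CI21A and AN34 had no close partner, with a highest rho of 0.36 and 0.38.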

How the data were processed

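Polyadenylated RNA from bruised tuber tissue was sequenced with strand-specific Lexogen SENSE libraries. Ribosomal reads were taken out with SortMeRNA and the rest trimmed with BBDuk. The authors checked quality with FastQC 0.11.7 and counted uniquely aligned reads per gene with STAR 2.6.1 on the PGSC-DM genome and annotation v4.03, and deposited raw counts. Which strand column was taken is not given in the sources used here. The stated removal of genes with counts under 5 in at least 5 samples would leave 15733 genes, whereas all 25163 deposited genes reached 5 counts in 5 or more samples.

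CPM was the count divided by the library total, times 1000000. The 100 genes and the gene lists were chosen with earlier results of these data known. Tests were edgeR 4.0.16 quasi-likelihood F tests (R 4.3.3) with TMM scaling on all genes and libraries of the comparison, p-values adjusted over all 25163 genes by Benjamini-Hochberg and a threshold of 0.05. SE is the absolute log2 estimate divided by the square root of F. The comparisons were 33 high- with 41 low-bruising libraries, the slope on the mean bruising score (taken from the study's supplementary data as a covariate) over 100 libraries, and 11 crosses. DESeq2 1.42.0 and limma-voom 3.58.1 were alternatives. The fits were also run on simulated data. The changed members had effects of 0.4 log2 units for the groups, 0.2 per point for the score and a SD of 0.3 for the crosses. The fits called 72.5%, 77.5% and 65% of them, and 0 unchanged members. Outside the 1000 most abundant genes the effects were 1, 0.5 and a SD of 0.7. There the fits called 114, 101 and 107 changed genes, but also 38, 35 and 255 unchanged genes. The shares of all genes called, given for comparison above, can therefore hold many false calls. The data simulated for the groups and the score held no differences between crosses. They therefore do not check these tests where bruising is uneven over crosses. P-values measure the spread between genotypes, each with 1 library, and the progeny of a cross are siblings.

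Named genes were the members in the study's lists, the 10 highest by mean CPM, the edge of the set (its ends only), the 3 genes at each end of the spread between and within crosses, the most uneven gene, and the 2 with the smallest p in each direction of each bruising test. Other genes past a bruising threshold are given by identifier with their slopes only. The 2 most alike libraries had a Pearson r of 0.961 against a median of 0.908, and none was treated as a duplicate.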

Additional observations from a re-analysis of the deposited data

Results flagged for a closer look

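The share of the 100 genes and the CPM of the 5 named genes were searched for single libraries far from their cross, in crosses of 5 to 10 libraries. Of 48 groups 6 held such a library. A rate of about 1 in 20 groups by chance would hold only for independent groups. The groups share libraries and the genes were chosen by these same CPM values, so no excess over chance is read from the count.

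The share of the 100 genes was 21.2% in the progeny 2175_4 (low bruising), whereas the other 7 libraries of cross 2175 lay between 17.6% and 19.1%. This library also held the highest CPM of the genes PGSC0003DMG400008917, PGSC0003DMG400023400, PGSC0003DMG400022159 and PGSC0003DMG400024891.

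KTPI was 11822 CPM in the progeny 2170_7 (low bruising), against 2909 to 5803 CPM in the rest of cross 2170. In the same library PAT1-K1 was 7090 CPM, against 873 to 3407 CPM in the rest of the cross. KTPI was also high in 1 library of cross 2172, with 6030 CPM in the progeny 2172_5 against 916 to 2889 CPM in the others. PAT1-K1 was 4279 CPM in the progeny 2177_6 (high bruising), against 257 to 1558 CPM in the rest of cross 2177. AN34 was 3605 CPM in the progeny 2155_5, against 1408 to 2352 CPM in the rest of cross 2155, and this library held 7774698 counts, fewer than 10000000. What set these libraries apart was not tested.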

How the results depend on the processing

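For high against low bruising 0 of the 100 genes were called under every alternative run, except that 1 was called without cross 2170 and 1 at a threshold of 0.1. Of all genes, 46 were called in the main test, 58 by DESeq2, 0 by limma-voom and 3 with either low-count filter. For the bruising score the count of 7 became 0 with cross as a term, 0 without libraries under 10000000 counts (an alternative chosen after seeing the data), and 0, 4, 0, 3, 13, 4 and 0 without cross 2121, 2159, 2165, 2168, 2170, 2175 and 2183, while 6 to 10 were called under the other alternatives. For differences between crosses, 88 to 95 genes were called against 93. The cause of these changes was not tested.

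Signs turned for 3 named genes. PAT1-K1 (PGSC0003DMG400008749) had a log2 fold change of 0.42 with cross as a term, 0.029 by limma-voom and 0.30 without cross 2170, and slopes of 0.14, 0.053 and 0.16 in the same fits. With cross as a term AN34 (PGSC0003DMG400017714) had -0.0098 for the groups and -0.0194 for the score, and CI21A (PGSC0003DMG400006662) had -0.0156 for the score. No reversed value passed the threshold.

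The main tests did not use the replicate numbers of the labels. The deviations of same-numbered libraries in the high and low groups correlated at 0.0410. Libraries with different replicate numbers were also different genotypes, so this value does not decide whether same-numbered libraries share an effect. With the replicate block, 0, 7 and 92 of the 100 genes were called for the groups, the score and the crosses.

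The range of PAT1-K1 over libraries was 36.9-fold without the progeny 2170_7, a check added after seeing the data, against 61.1-fold. Between 95 and 100 of the 100 genes remained in the set under other averages or without 1 cross. The median share of a library stayed between 17.3% and 17.4%, the median variance between crosses between 33.9% and 35.8%, and the median SD within crosses between 0.26 and 0.28. Depth limited no member, the lowest count being 1988. The 95 genes without a name and the lack of gene lengths limit what the ranks say.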

Other observations

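Grouping the 100 genes by average linkage at a Spearman rho of 0.5 gave 6 groups of 3 or more genes and left 34 genes alone. The grouping was made after the values were seen, uses the same libraries as every other value here, and carries no test.

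The largest group held 16 genes between ranks 15 and 100, all without a name here, in which crosses made up 47.7% to 75.2% of the variance. It included PGSC0003DMG400000398 and PGSC0003DMG401003156, 2 of the genes most set by cross, and the 5 genes that fell with the bruising score. Its mean log2 CPM stood 0.91 below the average over all libraries in cross 2165 (7 high- and 2 low-bruising libraries) and 0.44 above it in cross 2183 (no high-bruising library). The slope on the score was negative for 16 of 16 genes, with a median of -0.16 per point, and the median was -0.07 with cross as a term.

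A group of 12 genes held ranks 1, 3 and 10, with 23.7% to 46.0% of the variance between crosses. All 12 slopes were negative with a median of -0.04 per point, none past the threshold, and the median was -0.08 with cross as a term. A group of 5 genes joined KTPI, PAT2-K4 and PAT1-K1 with PGSC0003DMG400010128 and PGSC0003DMG400010146. Its mean log2 CPM was 0.69 above the average in cross 2170 and 0.47 below it in cross 2158, and its median slope was 0.09 per point and 0.14 with cross as a term, with no gene past the threshold.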
